A study of Homo sapiens with 14 samples.

Results

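SREBP-driven lipid synthesis was followed as 36 listed genes: 19 enzymes and carriers of sterol synthesis, 13 genes that make, lengthen or desaturate fatty acids or, for LPIN1, turn phosphatidate into diacylglycerol, and 4 regulators, SREBF1, SREBF2, SCAP and INSIG1. Members were matched by symbol to the array annotation, and 34 of them had a probe set of their own among the 18417 genes measured. Of these, 32 passed the filter on dim genes and entered the counts, namely 17 sterol genes, 11 fatty acid genes and all 4 regulators, among 11050 genes kept. ACACB and ELOVL5 lay below the filter, with means of 4.91 and 4.35 against the 5.90 required. Array values of FDFT1 and HSD17B7 were not analysed here, and HSD17B7 enters only the promoter search.

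The arrays measured a human gastric carcinoma line, MKN28 in the sample labels and MKN74 in the study's text, under 3 stimuli used to induce epithelial-mesenchymal transition. Parental cells were left untreated for 2 days, kept in 1% oxygen for 1 or 2 days, or given 10 ng/mL TGFβ1 for 1 or 2 days. Cells of the MKN28snai1ER derivative, which carry a Snai1 protein fused to an oestrogen receptor domain that 4-hydroxytamoxifen (4-OHT) switches on, were left untreated for 4 days or given 20 ng/mL 4-OHT for 2 or 4 days. Every one of the 6 treated conditions has a second array from cells with knockdown of ANGPTL4, a secreted regulator of lipoprotein lipase, and cells grew as separate colonies before treatment. Knockdown was by shRNA in the Snai1ER line, and neither untreated array has a knockdown partner. There was 1 array for each of the 14 conditions, so that the 2 time points of a treatment are its only repetition, and hypoxia and TGFβ1 share 1 untreated array as control.

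Sterol regulatory element-binding proteins are transcription factors held in the endoplasmic reticulum membrane. When sterols are scarce, SCAP escorts them to the Golgi, where proteases release the part that enters the nucleus, and when sterols are plentiful, INSIG proteins retain SCAP and the precursor in the endoplasmic reticulum. SREBF2 mainly drives the sterol genes and SREBF1 mainly the fatty acid genes, and INSIG1 and both SREBF genes are themselves targets of the pathway. These are background facts, and none of them was measured on these arrays, which report RNA only.

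The 250 bases before the transcription start of the members were read from RefSeq (GRCh38.p14) and searched on both strands for 4 motifs known from SREBP target promoters. The sterol regulatory element was searched only as TCACNCCAC, so variants of these letters and elements outside the 250 bases were not counted. Of the 36 listed genes 32 had a window, and the element lay in that of 1 gene, SREBF2. By window this was 2.17% of 46 member windows, beside 0.831% of the 12761 windows of all genes kept. Over all genes it was 0.883% of 35116 windows. The SREBF2 window is shown because it is the one that holds this element; the capitals mark it, 133 to 125 bases before the start. It lies at chr22:41832855-41833104 on the plus strand.
SREBF2: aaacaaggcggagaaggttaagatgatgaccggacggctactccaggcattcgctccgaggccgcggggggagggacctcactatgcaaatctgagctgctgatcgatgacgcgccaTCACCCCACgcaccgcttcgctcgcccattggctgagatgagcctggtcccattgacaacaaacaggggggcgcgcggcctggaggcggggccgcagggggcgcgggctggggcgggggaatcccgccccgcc

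CCAAT, the binding letters of NF-Y, lay in 63% of the 46 member windows, beside 33.2% of the 12761 windows of all genes kept. The GC box GGGCGG, bound by Sp1, lay in 84.8% of the member windows beside 63.8%, and the E-box CACGTG in 10.9% beside 8.25%. By gene, 14 of 16 sterol members with a window, 8 of 12 fatty acid members and 2 of 4 regulators held CCAAT. No share by gene was counted over all genes, and a gene with several windows has more chances of a match. These gene counts are therefore not comparable with the shares by window. In 1 member window a CCAAT match and a GC box overlapped. The windows of INSIG1, SCD and HMGCS1 are printed because these genes had the lowest differences of their groups on TGFβ1, and they were chosen after those values were seen; for HMGCS1, which has several windows, the one with the most CCAAT matches is given. Capitals mark CCAAT or, read on the other strand, ATTGG. INSIG1 holds 1 match, 170 bases before the start, at chr7:155297628-155297877 on the plus strand. SCD holds 2, at 229 and 186 bases before the start, at chr10:100346983-100347232 on the plus strand. HMGCS1 holds 2, at 155 and 100 bases before the start, at chr5:43313413-43313662 on the minus strand.
INSIG1: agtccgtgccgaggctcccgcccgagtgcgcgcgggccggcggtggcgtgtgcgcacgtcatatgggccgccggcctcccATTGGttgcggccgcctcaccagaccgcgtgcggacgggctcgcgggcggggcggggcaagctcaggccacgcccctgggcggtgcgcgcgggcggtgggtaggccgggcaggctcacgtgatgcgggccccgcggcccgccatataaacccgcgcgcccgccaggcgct
SCD: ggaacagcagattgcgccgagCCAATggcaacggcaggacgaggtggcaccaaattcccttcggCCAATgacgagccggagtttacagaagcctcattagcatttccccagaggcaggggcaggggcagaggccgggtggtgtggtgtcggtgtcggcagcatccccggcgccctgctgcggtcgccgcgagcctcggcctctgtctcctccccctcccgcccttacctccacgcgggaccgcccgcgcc
HMGCS1: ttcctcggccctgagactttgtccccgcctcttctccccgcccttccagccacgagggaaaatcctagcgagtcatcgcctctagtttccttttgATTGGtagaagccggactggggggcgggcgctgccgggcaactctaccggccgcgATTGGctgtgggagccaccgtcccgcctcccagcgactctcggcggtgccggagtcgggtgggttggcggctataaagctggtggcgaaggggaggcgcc

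All levels below are log2 values after quantile normalization of the 14 arrays to 1 distribution, unless the deposited scale is named. This was done because the TGFβ1 arrays of day 1 and day 2 without knockdown stood apart, with deposited medians of 5.23 and 5.19 against 6.0 to 6.16 on the other 12 arrays. The hypoxia array of day 1 with knockdown also differed most from the mean of the others, with a standard deviation of 0.72 against 0.27 to 0.56. The 7 epithelial markers had means of 8.11 to 11.7, and 7 of 9 markers of blood, vessel and connective tissue cells lay below the filter. SNAI1 levels were 8.74 to 9.78 in Snai1ER cells and 5.48 to 6.07 in parental cells. ANGPTL4 lay below the filter on every array, at 4.97 to 5.39, so its probe set does not check the knockdown. A gene was called changed when it differed by at least 1.5-fold from the untreated array of its line at each of the 2 time points, and both times to the same side.

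After quantile normalization, TGFβ1 was followed by lower RNA levels of nearly the whole sterol branch and most of the fatty acid branch. Of the 32 members, 26 fell and 0 rose, beside 3.27% of all genes kept that fell and 2.47% that rose. The members that fell were 15 of 17 sterol genes, 9 of 11 fatty acid genes, and INSIG1 and SREBF2. The median difference was -1.15 for the sterol genes, -0.70 for the fatty acid genes and 0.01 for all genes kept. With 1 array a condition this is a rule of size and not a test, and in RNA of whole cultures fewer cells with an RNA and less of it per cell cannot be told apart.

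Among the regulators, INSIG1, which retains SCAP in the endoplasmic reticulum, read 9.53 untreated, 6.92 on day 1 and 6.90 on day 2, or 6.10-fold and 6.19-fold lower. It had the lowest mean difference of the members, -2.62. SREBF2, the gene of the factor that mainly drives sterol synthesis, read 7.70 untreated and 6.85 and 6.91 on TGFβ1. SREBF1, the gene of the factor that mainly drives fatty acid synthesis, went from 6.78 to 6.35 and 6.24, which did not reach the rule. SCAP, the escort protein's gene, read 6.63, then 6.82 and 6.92, and was the one member above its untreated level at both time points.

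In the first steps of the sterol branch, from acetyl-CoA to farnesyl diphosphate, 5 of 7 measured genes fell. HMGCS1, which makes HMG-CoA, read 11.15 untreated, 8.96 on day 1 and 9.13 on day 2, or 4.58-fold and 4.07-fold lower. ACAT2, which joins acetyl-CoA units, read 11.12, 10.10 and 10.13. IDI1, the isopentenyl diphosphate isomerase, read 10.45, 9.34 and 9.41. These genes were lower on both treated arrays by more than the 2 treated arrays differed from each other. FDPS, the farnesyl diphosphate synthase, differed by -1.20 at both time points, and MVK, mevalonate kinase, by -0.78 and -0.96, although its mean of 5.97 is just above the filter. The other kinase and the decarboxylase of the mevalonate steps did not reach the rule, with differences of -0.29 and -0.26 for PMVK and of -0.53 and -0.49 for MVD.

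All 9 members measured among the enzymes from squalene to cholesterol fell. DHCR7, the last reductase of one route to cholesterol, read 10.15 untreated and 8.14 and 8.17 on TGFβ1, or 4.03-fold and 3.95-fold lower. MSMO1, which starts removal of the methyl groups at carbon 4, read 9.64, 7.68 and 7.83. SQLE, the squalene epoxidase, read 11.63, 10.15 and 10.45. All 3 genes were lower at both time points by more than the treated arrays differed from each other. LSS, which closes the sterol ring, had a mean difference of -1.49, and the demethylase CYP51A1 one of -1.08. The remaining enzymes, NSDHL, EBP, SC5D and TM7SF2, had mean differences of -1.19, -1.15, -0.98 and -0.72. STARD4, a carrier that moves cholesterol between membranes and not an enzyme, had one of -1.25.

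In the fatty acid branch, the desaturase SCD, which makes oleate from stearate, had the lowest values. It read 11.54 untreated, 9.12 on day 1 and 9.34 on day 2, or 5.36-fold and 4.61-fold lower. ACSS2, which makes acetyl-CoA from acetate, read 8.69, 7.38 and 7.21. LPIN1, the phosphatidate phosphatase, read 8.06, 6.93 and 6.82. These 3 genes fell more than 2-fold at both time points, whereas the enzymes that build palmitate lay close to the threshold. FASN, the fatty acid synthase, differed by -0.65 and -0.68, ACACA, the acetyl-CoA carboxylase, by -0.63 and -0.65, and ACLY, which makes acetyl-CoA from citrate, by -0.63 and -0.78. The desaturases FADS1 and FADS2 had mean differences of -0.87 and -0.66 and the enoyl reductase TECR one of -0.85. The elongases ELOVL1 and ELOVL6 did not reach the rule, at -0.05 and -0.39.

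**Figure D1:**
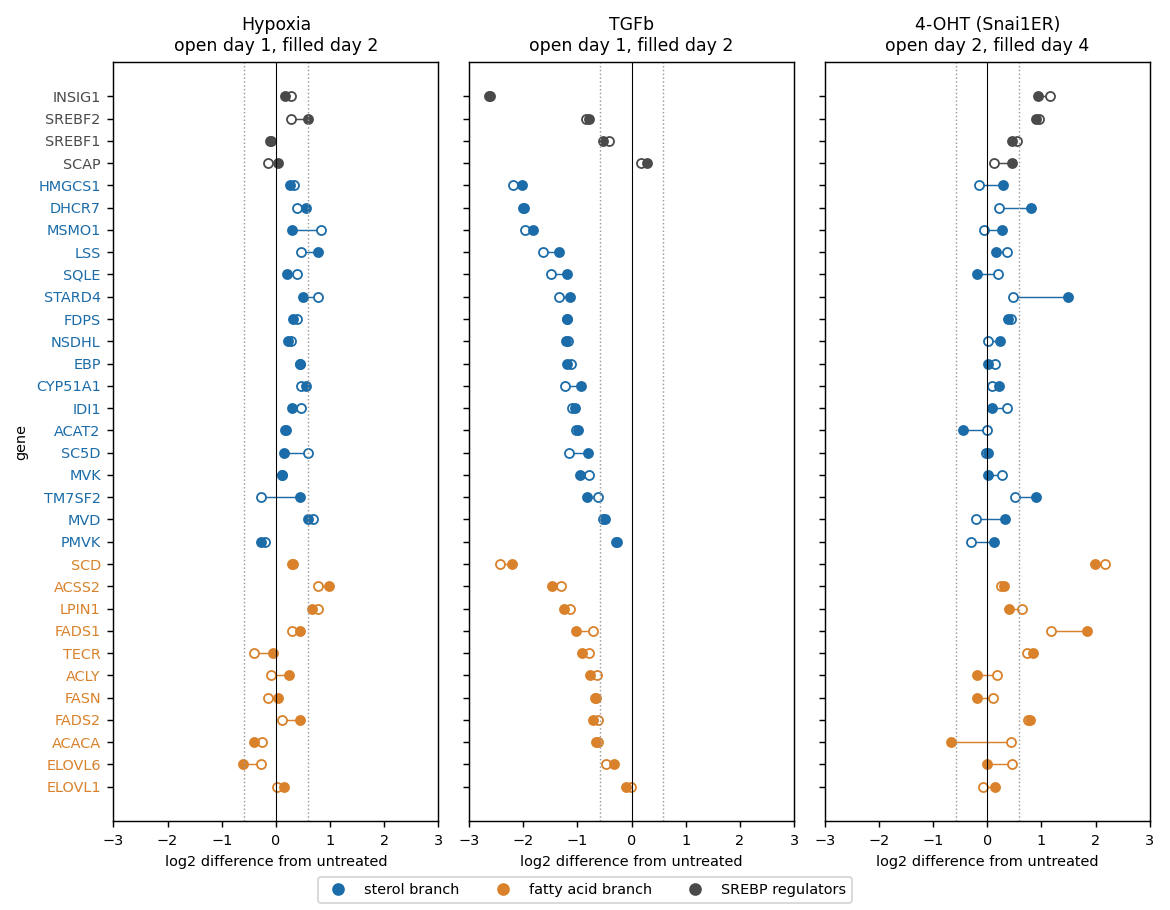
Log2 difference of each of the 32 members from the untreated array of its line (x axis), in 1 row a gene, for hypoxia, TGFβ1 and 4-OHT; open points are the first and filled points the second time point, colours mark the 3 groups, and dotted lines the 1.5-fold rule. On TGFβ1 26 members lie left of the dotted line at both time points, on hypoxia 3 and on 4-OHT 6 lie right of it.

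The size of the fall on TGFβ1, and how many members of each branch passed the rule, depended on how the arrays were scaled. On the deposited scale, where the median of all genes kept moved by -0.45 on day 1 and -0.47 on day 2, 30 of the 32 members fell, beside 32.3% of all genes with 0.452% rising, and INSIG1 differed by -3.14 and -3.18. With each array centred on its median, the median of the genes kept moved by 0.35 and 0.37. On that scale 12 members fell, beside 1.86% of all genes, with 22.5% of all genes rising. Among these 12, the fatty acid genes were ACSS2, SCD and LPIN1. The sterol genes were HMGCS1, MVK, LSS, MSMO1, NSDHL, DHCR7 and STARD4, and the regulators INSIG1 and SREBF2. No member rose on any of the 3 scales. The TGFβ1 arrays with knockdown have ordinary deposited medians of 6.08 and 6.07, and against the same untreated array 13 of the 32 members fell on them, beside 3.74% of all genes, and 0 rose, beside 0.968%. On the deposited scale 11 fell and 0 rose, beside 3.08% and 1.26% of all genes.

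These 13 were MVK, FDPS, LSS, TM7SF2, NSDHL, EBP, DHCR7, STARD4, INSIG1, ACSS2, SCD, TECR and LPIN1. The day 1 array carried smaller differences than the day 2 array, with sterol medians of -0.47 and -1.12. INSIG1 differed from untreated by -0.92 on day 1 with knockdown and by -2.64 on day 2, HMGCS1 by -0.38 and -2.28, and SCD by -0.63 and -2.61. For these 3 genes the day 2 values without knockdown were -2.63, -2.03 and -2.20, nearer to those with it than on day 1. Other members differed more on day 2, in both directions. ACACA stood at -0.06 with and -0.65 without knockdown, and STARD4 at -1.82 with and -1.15 without it.

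**Figure D2:**
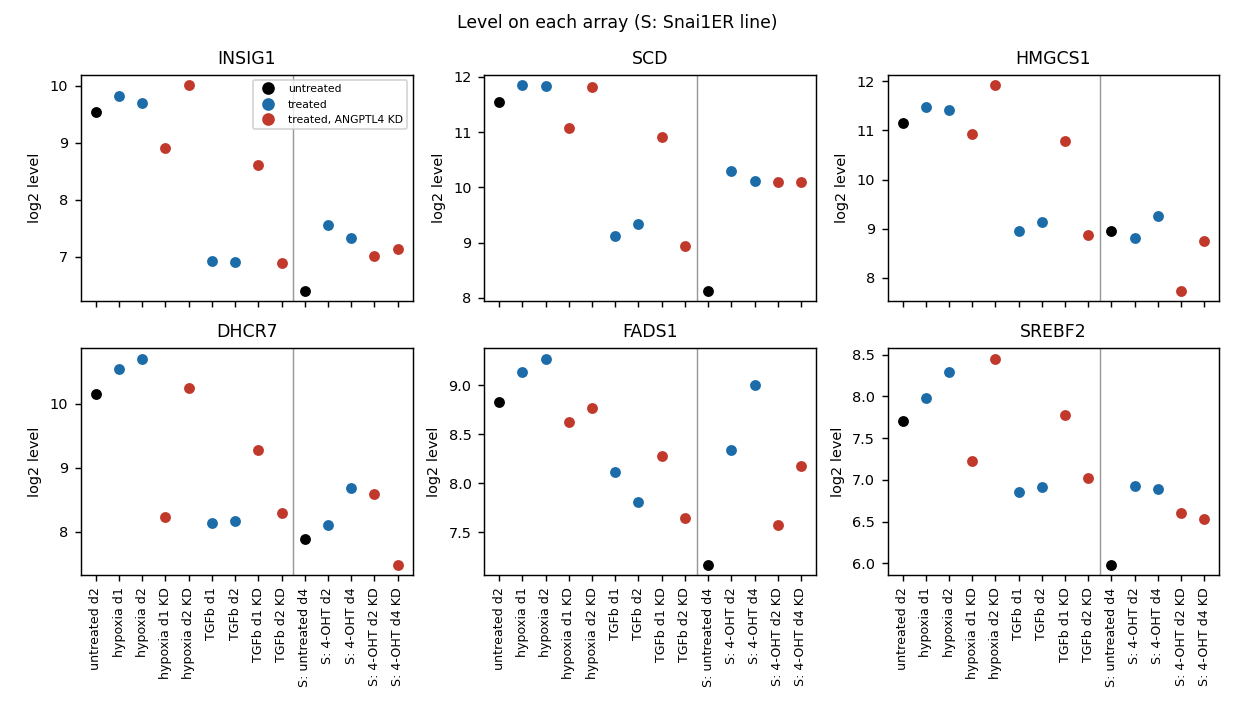
Log2 level after quantile normalization (y axis, a range of its own in each panel) of INSIG1, SCD, HMGCS1, DHCR7, FADS1 and SREBF2 on each of the 14 arrays (x axis), with untreated arrays in black, treated arrays in blue and treated arrays with ANGPTL4 knockdown in red; the line separates parental from Snai1ER arrays (S). The TGFβ1 arrays, other than that of day 1 with knockdown, and the untreated Snai1ER array lie low for INSIG1, SCD and HMGCS1. The 4-OHT arrays also lie low for HMGCS1, at 7.73 to 9.25, and for INSIG1, at 7.01 to 7.55.

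Without any stimulus, the Snai1ER line had lower levels of most members than the parental line. On its untreated array of day 4, 25 of 32 members were at least 1.5-fold lower than on the untreated parental array of day 2 and 0 were higher, beside 8.13% of all genes kept that were lower and 5.09% that were higher. They were 15 of 17 sterol genes, 7 of 11 fatty acid genes and 3 of 4 regulators, with medians of -1.35, -0.83 and -1.21. The count on the deposited scale was also 25. Line and day of culture cannot be told apart here, since each untreated array is the only one of its line.

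SCD read 8.13 in the untreated Snai1ER cells against 11.54 in the parental cells, and INSIG1 6.40 against 9.53. STARD4 read 7.02 against 9.34, DHCR7 7.89 against 10.15 and HMGCS1 8.96 against 11.15. SREBF2 itself read 5.98 against 7.70. For SCD, INSIG1, DHCR7 and SREBF2 these levels lay below those of the parental cells on TGFβ1 given above. PMVK, SCAP and ELOVL1 were slightly higher in the Snai1ER cells, by 0.34, 0.14 and 0.28.

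Starting from these low levels, 4-OHT was followed by higher RNA of SCD, FADS1, FADS2, TECR and 2 regulators, while no sterol gene passed the rule. Of the 32 members 6 rose and 0 fell, beside 2.33% and 1.21% of all genes kept. SCD read 8.13 untreated, 10.29 after 2 days and 10.12 after 4 days, or 4.48-fold and 3.98-fold higher. FADS1, the delta-5 desaturase, read 7.17, 8.34 and 9.0, and FADS2, the delta-6 desaturase, 5.89, 6.63 and 6.67. TECR, which completes each elongation cycle, read 9.72, 10.45 and 10.57. Among the regulators INSIG1 read 6.40, 7.55 and 7.33, and SREBF2 5.98, 6.93 and 6.89. The treated levels of SCD, INSIG1 and SREBF2 remained below the untreated parental ones, whereas FADS1 on day 4 and TECR on day 4 reached them.

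By branch, the counts on 4-OHT were 4 of 11 fatty acid genes and 2 of 4 regulators against 0 of 17 sterol genes. The median difference was 0.28 for the fatty acid genes, 0.12 for the sterol genes and 0.02 for all genes kept. The difference between branches was not tested. The sterol genes nearest to the rule were STARD4, at 0.48 and 1.49, and TM7SF2, at 0.51 and 0.90, each past it on day 4 alone. Synthesis genes of the fatty acid chain itself did not move together, with ACACA at 0.44 and -0.67, FASN at 0.11 and -0.19 and ACLY at 0.18 and -0.19. On the 4-OHT arrays with knockdown 2 members rose, SCD and INSIG1, and 0 fell, beside 1.77% and 5.43% of all genes.

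**Figure D3:**
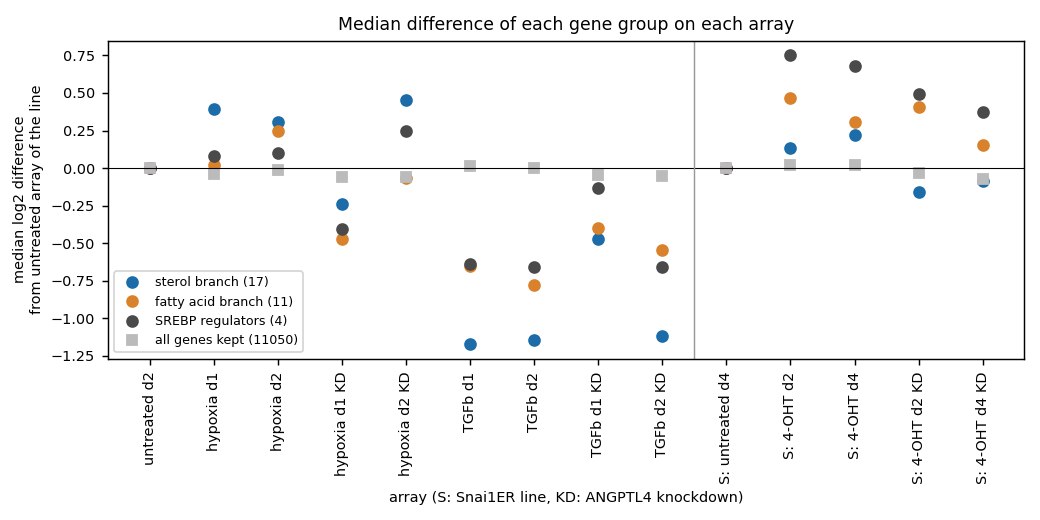
Median log2 difference (y axis) of the 17 sterol genes, 11 fatty acid genes and 4 regulators from the untreated array of the line on each of the 14 arrays (x axis), with grey squares for all 11050 genes kept. The sterol genes lie lowest of the 3 groups on all 4 TGFβ1 arrays, while on the 4-OHT arrays without knockdown the regulators and fatty acid genes lie above the sterol genes.

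In hypoxia without knockdown the members kept close to their untreated levels, with small positive differences across the sterol branch. Of the 32 members 3 rose and 0 fell, beside 3.02% and 1.95% of all genes kept. The genes that rose were MVD, which makes isopentenyl diphosphate, with differences of 0.69 and 0.59, ACSS2 with 0.78 and 0.99, and LPIN1 with 0.77 and 0.66. ACSS2 read 8.69 untreated, 9.47 on day 1 and 9.68 on day 2. Of the 17 sterol genes, 15 were above 0 at both time points. Both differences use the same untreated array, and the share of all genes above 0 at both was not counted. The median difference was 0.37 for the sterol genes, beside 0.09 for the fatty acid genes and -0.03 for all genes kept. On the hypoxia arrays with knockdown, 5 of the 17 sterol genes were above 0 at both time points, with sterol medians of -0.24 on day 1 and 0.45 on day 2. STARD4, MSMO1 and SC5D passed 1.5-fold on day 1 alone and LSS and SREBF2 on day 2 alone, all upward, and ELOVL6 downward on day 2 alone. INSIG1 read 9.81 and 9.70 against 9.53 untreated, and SCD 11.86 and 11.84 against 11.54. With knockdown no member rose on the hypoxia arrays and 1 fell, ELOVL6, beside 5.80% of all genes, and on the array of day 1 that stands apart LPIN1 read 6.45 and DHCR7 8.23.

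Because hypoxia and TGFβ1 share their untreated array, they were compared directly over the 4 matched pairs of treated parental arrays (day 1 and day 2, with and without knockdown). With limma, 2 of 32 members were lower on TGFβ1 at an adjusted p below 0.05 and 0 higher, beside 1.00% and 1.53% of all genes kept. IDI1 differed by a mean of -1.28 (SE 0.22, n = 4 pairs, limma adjusted p = 0.045) and was lower in 4 of 4 pairs. MSMO1 differed by -1.97 (SE 0.34, n = 4 pairs, limma adjusted p = 0.045), also lower in 4 of 4 pairs. IDI1 read 9.34, 9.41, 10.34 and 9.42 on the TGFβ1 arrays of day 1, day 2, day 1 with knockdown and day 2 with knockdown, and 10.92, 10.74, 10.87 and 11.11 on the hypoxia arrays in that order. MSMO1 read 7.68, 7.83, 9.24 and 7.95 on TGFβ1 and 10.48, 9.95, 9.88 and 10.26 in hypoxia. For both genes the 4 TGFβ1 levels lay below the 4 hypoxia levels without overlap. These are the values behind the calls and add no further support, and the share of all genes without overlap was not counted.

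In all, 28 of 32 members had a negative mean difference, beside 48.9% of all genes kept. At an unadjusted p of 0.05, 23 members were lower and 0 higher, beside 8.73% and 12.4% of all genes. STARD4 missed the threshold at -1.66 (SE 0.31, n = 4 pairs, limma adjusted p = 0.052), and INSIG1, HMGCS1 and SCD, with the lowest means, at -2.28, -2.0 and -2.07, had standard errors of 0.47, 0.45 and 0.45 and limma adjusted p of 0.062, 0.073 and 0.070. One pair, day 1 with knockdown, differed from the others, with a sterol median of -0.15 against -1.59, -1.44 and -1.40. It holds the hypoxia array that stands apart and the TGFβ1 array on which the members fell least. Without that pair 25 members were called lower, beside 8.59% of all genes lower and 9.81% higher. That fit still holds the pairs of day 1 and day 2, whose TGFβ1 arrays had the low deposited medians of 5.23 and 5.19. How far its calls rest on these arrays was not tested. When any pair other than day 1 with knockdown was left out, 0 of all genes kept were called. Those fits say nothing about the members, and the calls of IDI1 and MSMO1 are lost in them. IDI1 also lost its call with each array centred on its median, while MSMO1 kept it.

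**Figure D4:**
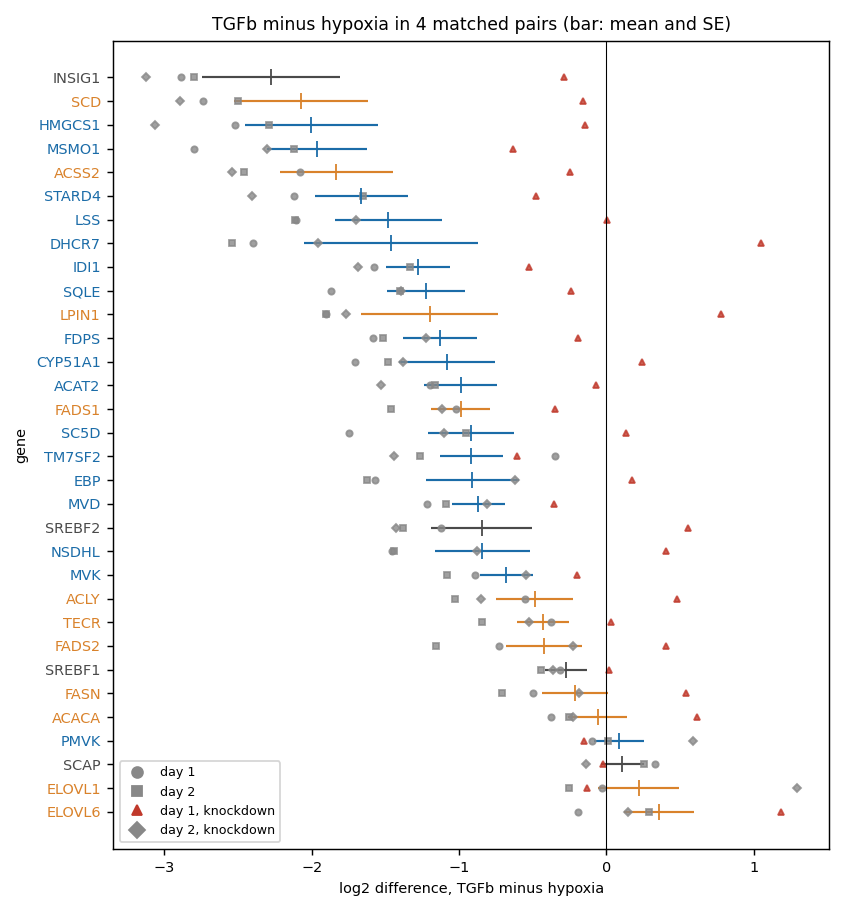
Log2 difference between TGFβ1 and hypoxia (x axis) for each of the 32 members in each of the 4 matched pairs (symbols), with a coloured bar for the mean and its SE. For most members 3 pairs lie well below 0, and the pair of day 1 with knockdown (red) lies nearer to 0 or above it.

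The difference between arrays with and without ANGPTL4 knockdown changed sign between pairs for most members, and no member was called over the 6 pairs of treated arrays. At a limma adjusted p below 0.05, 0 of 32 members were higher and 0 lower, beside 0.0905% and 0.787% of all genes kept. At an unadjusted p of 0.05, 2 were higher and 4 lower, beside 4.77% and 14.3% of all genes. ACACA was higher with knockdown in 6 of 6 pairs, by a mean of 0.66 (SE 0.17, n = 6 pairs, limma adjusted p = 0.11), and SQLE in 5 of 6, by 0.55 (SE 0.20, limma adjusted p = 0.189, n = 6 pairs). The 4 that were lower, each in 5 of 6 pairs, were the sterol enzymes EBP, NSDHL and FDPS, at -0.74, -0.72 and -0.53, and FADS1, at -0.43 (limma adjusted p from 0.154 to 0.186).

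Within pairs the sterol median was -0.71 in hypoxia on day 1, -0.14 in hypoxia on day 2, 0.71 on TGFβ1 on day 1, 0.12 on TGFβ1 on day 2, and -0.26 and -0.50 on 4-OHT on days 2 and 4, beside -0.03 to -0.11 for all genes kept. On TGFβ1 on day 1, 15 of the 17 sterol genes were higher with knockdown and 2 lower, beside 6210 of the 11050 genes kept that were lower. In hypoxia on day 1, 15 of 17 were lower, beside 5740 of the 11050. INSIG1 was 1.69 higher with knockdown on TGFβ1 on day 1, and 0.01 lower on day 2. DHCR7 was lower with knockdown, at -2.31, in hypoxia on day 1 and higher, at 1.14, on TGFβ1 on day 1. Each pair is 1 array against 1, and 1 array of each of these day 1 pairs stands apart from the rest in the ways given above, the hypoxia array with knockdown and the TGFβ1 array without it. Their part in these differences was not tested. A limma interaction term set the knockdown difference of the 4 parental pairs against that of the 2 Snai1ER pairs. In it 0 members were called, as were 0 of all genes kept, so it says nothing about the members. At an unadjusted p of 0.05, 0 members were higher in the Snai1ER pairs and 1 lower, TECR, beside 5.2% and 5.46% of all genes.

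**Figure D5:**
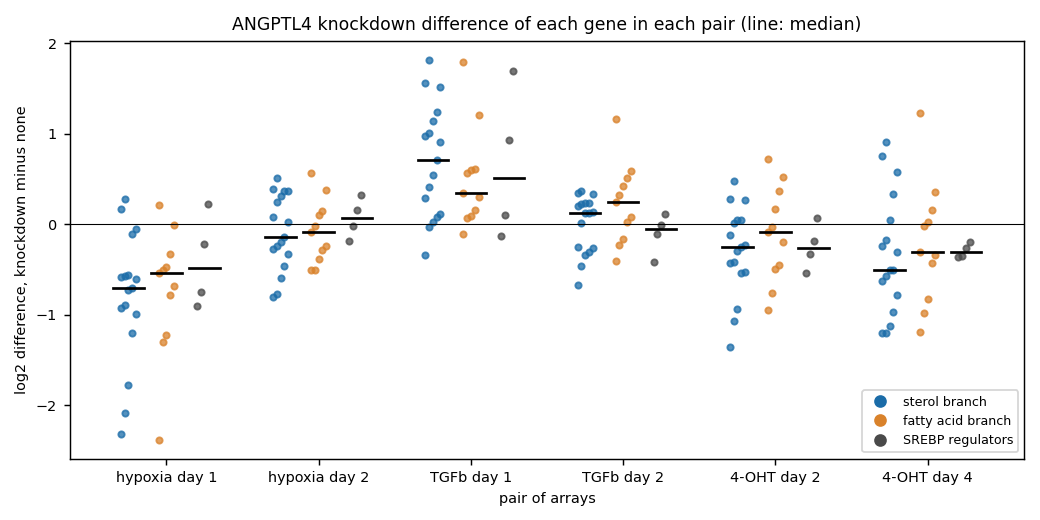
Log2 difference between the array with and the array without ANGPTL4 knockdown (y axis) for each member in each of the 6 pairs (x axis), coloured by group, with a black line at the median of the group. The sterol genes lie mostly below 0 in hypoxia on day 1 and mostly above 0 on TGFβ1 on day 1.

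Related genes outside the list were counted by the same rule. Of all genes kept, 3.27% fell and 2.47% rose on TGFβ1, and 1.95% fell and 3.02% rose in hypoxia. The lists were short and were not tested as sets. Of 7 further sterol genes kept, 3 fell on TGFβ1 and 0 rose: ERG28, a scaffold of the sterol demethylation enzymes, at -1.36 and -1.44, TMEM97, which binds the cholesterol transporter NPC1, at -1.12 and -1.18, and AACS, which makes acetoacetyl-CoA, at -0.84 and -0.94. Of 5 further genes of SREBP processing, the proteases MBTPS1 and MBTPS2 among them, none passed the rule on TGFβ1. INSIG2, the paralogue of INSIG1, rose in hypoxia by 1.38 and 1.10 and read -0.10 and 0.11 on TGFβ1. The difference of TGFβ1 from hypoxia was -1.24 for INSIG2 (SE 0.15, n = 4 pairs, limma adjusted p = 0.026), and -0.82 for GGPS1, which makes geranylgeranyl diphosphate (SE 0.14, n = 4 pairs, limma adjusted p = 0.045). Both calls are lost when the pair of day 1, of day 2 or of day 2 with knockdown is left out, as are those of all genes. NPC1, which exports cholesterol from lysosomes, rose in hypoxia by 0.77 and 0.68.

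Of 8 further fatty acid genes kept, 1 fell on TGFβ1, beside 3.27% of all genes kept. It was HSD17B12, a reductase of the elongation cycle, at -1.01 and -0.82. On 4-OHT 1 rose, beside 2.33% of all genes, the citrate carrier SLC25A1, at 0.83 and 0.63. In hypoxia 1 fell, beside 1.95% of all genes, the glycerol-phosphate acyltransferase GPAM, at -0.65 and -0.64. Of 4 genes of the liver X receptor pathway kept, which responds to oxysterols, MYLIP and LPCAT3 fell on both TGFβ1 and hypoxia. The shares of all genes that fell were 3.27% and 1.95%. MYLIP, which marks lipoprotein receptors for degradation, differed by -0.64 and -0.71 on TGFβ1 and by -0.89 and -1.28 in hypoxia. LPCAT3, which puts polyunsaturated chains into phospholipids, differed by -0.90 and -0.89 on TGFβ1 and by -0.72 and -0.96 in hypoxia, and both comparisons use the same untreated array.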

How the data were processed

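RNA extracted with Trizol was amplified with the NuGEN Applause WT-Amp ST system, labelled with biotin and hybridised to GeneChip Human Gene 1.0 ST arrays. The authors summarised the arrays with RMA in Partek and deposited log2 values, 1 array a condition; versions are not given in the sources used here. The deposited values of all 33297 probe sets were quantile normalized over the 14 arrays. Of these probe sets 19460 had 1 gene symbol in the array annotation, and 19429 were matched by gene ID. Probe sets of a gene were averaged, giving 18417 genes, and genes with a mean at or above the 40th percentile (log2 5.90) were kept.

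Treated arrays were compared with the untreated array of their line by the 1.5-fold rule at both time points. The knockdown (6 pairs, 5 residual degrees of freedom) and TGFβ1 minus hypoxia (4 pairs, 3 residual degrees of freedom) were fitted with lmFit and eBayes in limma 3.58.1 (R 4.3.3), with the pair as a block and Benjamini-Hochberg adjustment over 11050 genes at 0.05. Pairs come from the design, an array with and one without knockdown, or with either stimulus, at the same time and setting. The fits were also run on simulated data with independent noise, of equal size for a gene on every array. That leaves out the arrays that stand apart, so no result here rests on it. Nothing says that arrays came from separate cultures, so p-values measure the spread between these arrays. The number of arrays limits the precision.

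The members and gene lists were chosen with earlier results of these data known. All members may be named, and of the other lists genes past the rule, up to 6 a comparison. Promoter windows printed by rule were those of up to 4 members holding TCACNCCAC. Promoters came from RefSeq tables of GRCh38.p14. Array values of FDFT1 and HSD17B7 were not analysed here, those of HSD17B7 because its probe set is shared with a pseudogene; its promoter was searched. Markers were EPCAM, CDH1, KRT8, KRT18, KRT19, CLDN4 and CLDN7 for epithelium, and PTPRC, CD3E, CD68, PECAM1, VWF, COL1A1, COL3A1, DCN and LUM for other cells. The alternatives covered scaling, filter, probe set choice, a 2-fold rule, single time points, knockdown arrays, the block, trend, array weights and left-out pairs. Figures were drawn with matplotlib 3.10.9.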

Additional observations from a re-analysis of the deposited data

How the results depend on the processing

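No member rose on TGFβ1 under any alternative, while the number that fell varied. In brackets stand the shares of all genes tested, higher and then lower. Of the members that changed, TGFβ1 gave 26, with 12 when each array was centred on its median (22.5% and 1.86%), 14 at 2-fold (0.434% and 0.95%) and 13 on the arrays with knockdown (0.968% and 3.74%). Hypoxia gave 3, with 0 at 2-fold (0.805% and 0.19%), 6 that rose at the first time point alone (4.38% and 3.37%), 6 at the second alone, of which 5 rose and 1 fell (5.65% and 4.7%), and 1 that fell on the arrays with knockdown (1.95% and 5.80%). The count for 4-OHT was 6, with 2 that rose at 2-fold (0.561% and 0.308%), 10 at the second time point alone, of which 9 rose and 1 fell (10.8% and 10.2%), and 2 that rose on the arrays with knockdown (1.77% and 5.43%). Among the members called in a comparison, the mean difference had the opposite sign on the arrays with knockdown for LPIN1 in hypoxia (-0.285), ACACA on TGFβ1 (0.26) and TECR on 4-OHT (-0.052); members that were not called also changed sign, such as DHCR7 in hypoxia, at 0.48 without and -0.91 with knockdown. The sterol median on TGFβ1 went from -1.15 to -0.65 with median centring, and the fatty acid median from -0.70 to -1.29 on the deposited scale. For TGFβ1 against hypoxia, 2 members were called, and 9 on the deposited scale (0.462% and 1.67%), 4 with median centring (9.74% and 0.986%), 14 without the pair block, that is with no replicate block (2.41% and 1.87%), 27 with array weights (16.8% and 13.7%), and 0 to 25 when 1 pair was left out; all of these were lower on TGFβ1. For the knockdown, 0 were called, and 5 (lower) with median centring (0.181% and 10.6%), 2 (higher, SQLE and ACACA) with array weights (3.63% and 11.7%), 0 without the block and 0 to 0 when 1 pair was left out. The causes of these moves were not tested. A single array a condition, 2 arrays on another deposited scale and 1 untreated array per line limit every comparison. Levels near the filter, as for MVK and for FADS2 and SREBF2 on the untreated Snai1ER array, have little signal over background.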
